A study of Rattus norvegicus with 9 samples.

Results

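The 10 genes described here are the liver X receptors and genes of cholesterol efflux and handling: Nr1h2, Nr1h3, Abca1, Abcg1, Apoe, Mylip, Lpcat3, Scarb1, Npc1 and Npc2. They were picked by gene symbol from the 22050 genes of the deposited table. The rule used no measured values, but earlier results of these data were known when the genes were chosen. All 10 were found, each as a single gene, and 7 of them were among the 11473 genes that passed the filter on low counts. Abcg1, Nr1h3 and Apoe did not pass it. RNA-seq was performed on NRK-49F, an established wild-type line of rat renal fibroblasts. Every culture had received TGF-b1, a cytokine that drives fibroblasts towards a matrix-producing state, with an incubation of 48 h in the labels. The 3 groups were TGF-b1 with vehicle, TGF-b1 with the compound YEXX-2A and TGF-b1 with the compound YWCH-4A, with 3 libraries each. The labels give no dose or timing for either compound, both are known here by code name alone, and cells without TGF-b1 were not analysed here. The labels call the replicates biological but do not say whether they were separate cultures or days, so each p-value reflects the variation among the libraries at hand. The study set out to find small molecules against kidney fibrosis, and the question addressed here is how the 2 compounds compare with vehicle, and with each other, in these genes.

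Liver X receptors (LXRs) are nuclear receptors that bind oxysterols, the oxidised forms of cholesterol, and pair with retinoid X receptors on DNA. Their targets move cholesterol out of the cell, remodel phospholipids and lower uptake of lipoproteins. When cell sterol is low, the SREBP2 pathway instead raises cholesterol synthesis and lipoprotein uptake. Cholesterol from endocytosed lipoproteins leaves the lysosome through the NPC2 and NPC1 proteins before it can reach the plasma membrane, where efflux takes place. Kidney fibroblasts are not a classical site of LXR biology, which is best known from liver, macrophages and intestine.

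RefSeq start-site windows (assembly GRCr8) were given for 8 of the 10 members, and for Abcg1 and Scarb1 there was no entry. The 250 bases upstream of the start are shown for Abca1, Npc1 and Mylip, because these were the members called higher with YWCH-4A than with vehicle. All 3 genes lie on the minus strand, at chr5:72596474-72596723, chr18:3699801-3700050 and chr17:19514472-19514721. Each sequence is written 5′ to 3′ in the direction of the gene. The classical LXR element, DR4, is 2 copies of the hexamer AGGTCA in the same direction with 4 bases between them. Capitals mark a pair of such hexamers with at most 3 mismatches over the 12 hexamer bases, searched on both strands.
Abca1: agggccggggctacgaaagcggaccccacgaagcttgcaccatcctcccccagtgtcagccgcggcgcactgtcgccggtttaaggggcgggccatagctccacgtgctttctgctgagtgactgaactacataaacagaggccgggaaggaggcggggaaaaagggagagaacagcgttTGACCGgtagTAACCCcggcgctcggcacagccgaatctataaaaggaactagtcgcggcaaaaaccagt
Npc1: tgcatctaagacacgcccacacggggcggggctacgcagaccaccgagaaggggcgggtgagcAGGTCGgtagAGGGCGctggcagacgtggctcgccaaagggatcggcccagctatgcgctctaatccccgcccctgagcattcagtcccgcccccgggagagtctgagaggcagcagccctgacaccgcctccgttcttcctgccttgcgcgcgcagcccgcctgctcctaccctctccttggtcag
Mylip: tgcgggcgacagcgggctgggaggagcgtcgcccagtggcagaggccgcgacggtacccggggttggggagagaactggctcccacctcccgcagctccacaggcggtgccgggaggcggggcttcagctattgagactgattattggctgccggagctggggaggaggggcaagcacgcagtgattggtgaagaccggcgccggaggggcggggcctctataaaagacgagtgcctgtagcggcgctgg
In the full windows of 300 bases, such a pair was found in 3 members. In Abca1 it read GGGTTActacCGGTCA on the opposite strand, and its most upstream base in the direction of the gene lay at -70 from the start site. In Npc1 it read AGGTCGgtagAGGGCG, with its first base at -187. In Npc2 it read GGGTGGagccAGGTCA on the opposite strand, and its most upstream base in the direction of the gene lay at 10, downstream of the start. Mylip held none. A pair with that many mismatches was present in 21.9% of the 33469 windows in the table, and no member had one with 2 or fewer, which 2.93% of windows held. These are matches of letters in a short window, and no binding was measured here.

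The libraries held 13675868 to 21923715 counts. Replicate 2 of the vehicle stood apart: the biological variation between replicates estimated by edgeR (coefficient of variation) came to 16.7% for vehicle and 4.68% without it, against 7.39% for YEXX-2A and 3.66% for YWCH-4A. It was also the highest of the 3 vehicle libraries for Nr1h2, Lpcat3, Scarb1, Npc1 and Npc2. Many results are therefore also given without it, or with a library score as a covariate, though not every change is listed. The score is a library's position along the leading principal component of the differences between replicates. It was read from values centred over all 9 libraries, so it can also carry differences between groups. Scores were 2.55, 43.4 and -3.15 with vehicle, -16.2, -24.1 and -7.87 with YEXX-2A and 1.76, -1.64 and 5.15 with YWCH-4A. As a covariate it can therefore also take up part of a difference between groups. Of 12 fibroblast markers, 11 were in the table by symbol, and Thy1, Dcn and Fap stayed under 1 CPM in every library (CPM is a gene's reads scaled to a common library size). The summed level of the 11 was 43088 to 55997 CPM with vehicle, 32464 to 35715 with YEXX-2A and 10773 to 11688 with YWCH-4A. That sum is mostly Col1a1, Col3a1 and Vim, which fell with YWCH-4A, while Pdgfra (log2 0.69, edgeR adjusted p = 7.25e-05) and Ddr2 (0.36, edgeR adjusted p = 0.00721) rose and the other 3 of 8 tested markers were not called. Of 10 kidney epithelial markers, Umod, Epcam, Krt18 and Aqp2 were at 0 throughout, and the summed level was at most 3.25 CPM, while 7 endothelial markers summed to at most 4.68 CPM. Mitochondrially encoded genes took 1.59% to 2.13% of scaled counts with vehicle, 2.33% to 2.65% with YEXX-2A and 1.77% to 1.88% with YWCH-4A, and the part of this in the results below was not tested. In bulk RNA, fewer cells of a type and less RNA per cell cannot be told apart.

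Levels of different genes were compared per length, as the FPKM deposited by the authors (n = 3 for each mean and SD). Npc2, the soluble lysosomal cholesterol carrier, was the highest member in every group, at 306 ± 23.2 FPKM (SD) with vehicle. Lpcat3, an enzyme that puts polyunsaturated chains into phospholipids, followed at 111 ± 6.21. Nr1h2, which encodes LXR beta, was at 46.2 ± 4.96, Scarb1, the HDL receptor, at 29.5 ± 2.19 and Npc1 at 21 ± 0.788. Far below these lay Mylip at 1.51 ± 0.327 and Abca1, the pump that loads cholesterol onto apolipoprotein A-I, at 0.477 ± 0.0462. The last members were near the limit of detection: Apoe at 0.16 FPKM, Abcg1 at 0.0233 and Nr1h3 at 0.0133. The order of Abcg1 and Nr1h3 cannot be read, since each had at most 2 counts in any library. With YWCH-4A, Npc1 (32.8 ± 0.217 FPKM) stood above Scarb1 (26.2 ± 0.226), the reverse of their order with vehicle and with YEXX-2A. Thus, of the receptor pair, LXR beta was expressed and LXR alpha was nearly undetected, and of the 2 efflux pumps Abca1 was measurable at a low level while Abcg1 was not.

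**Figure D1:**
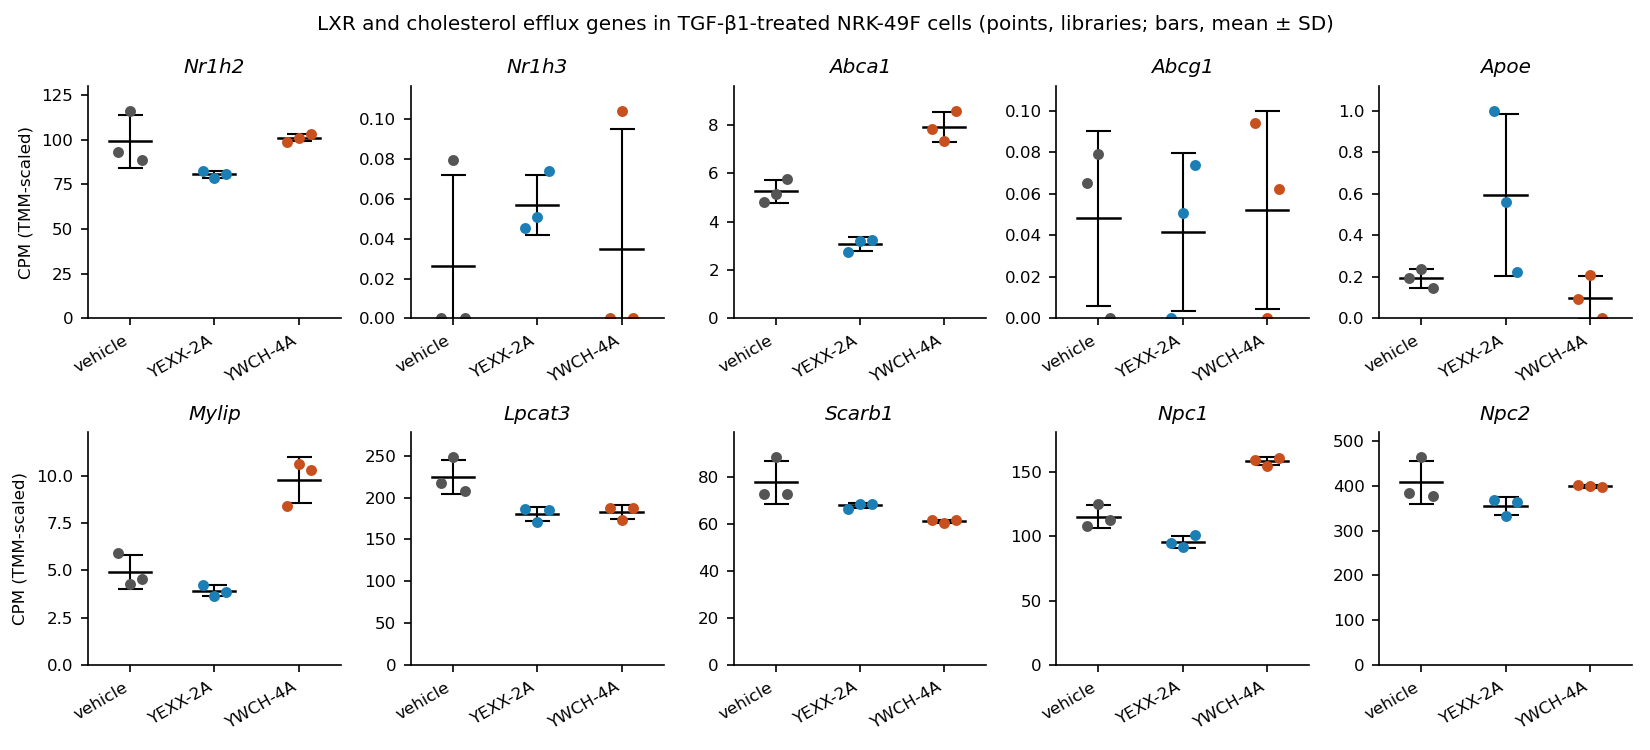
Level of each of the 10 members in CPM (linear axes from 0) in the 9 libraries; points are libraries, and bars give the mean and SD of 3. Abca1, Mylip and Npc1 are highest with YWCH-4A in every library, whereas Nr1h3 and Abcg1 stay under 0.11 CPM throughout.

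With YEXX-2A, no tested member rose and 4 of 7 fell against vehicle: Abca1, Nr1h2, Lpcat3 and Npc1. Over all tested genes, 36.1% were called in this comparison at an adjusted p under 0.05 in edgeR's quasi-likelihood test, 17.6% higher and 18.5% lower. The median log2 fold change of the 7 was -0.30, beside 0.01 over all tested genes. The count of 4 was 1 without YEXX-2A replicate 2, 1 when only the 2 groups were fitted and 1 with the library score, where the median was -0.13. In these fits the share called over all tested genes also fell, to 9.03%, 12.5% and 13.7% in that order. With YWCH-4A, 3 members rose against vehicle (Abca1, Mylip and Npc1) and 2 fell (Lpcat3 and Scarb1). There 30.6% of all tested genes were called, 15.7% higher and 14.9% lower, and the median of the 7 was 0.03, the same as over all genes, or 0.15 without vehicle replicate 2 and 0.13 with the library score. Between the compounds, Abca1, Nr1h2, Mylip and Npc1 were higher with YWCH-4A and no member was lower, where 31.3% of all genes were called, 16.2% higher and 15.1% lower. The median of the 7 was 0.32, beside 0 over all genes, or 0.18 with the library score. Both comparisons with vehicle share the vehicle libraries and are not independent of each other.

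**Figure D2:**
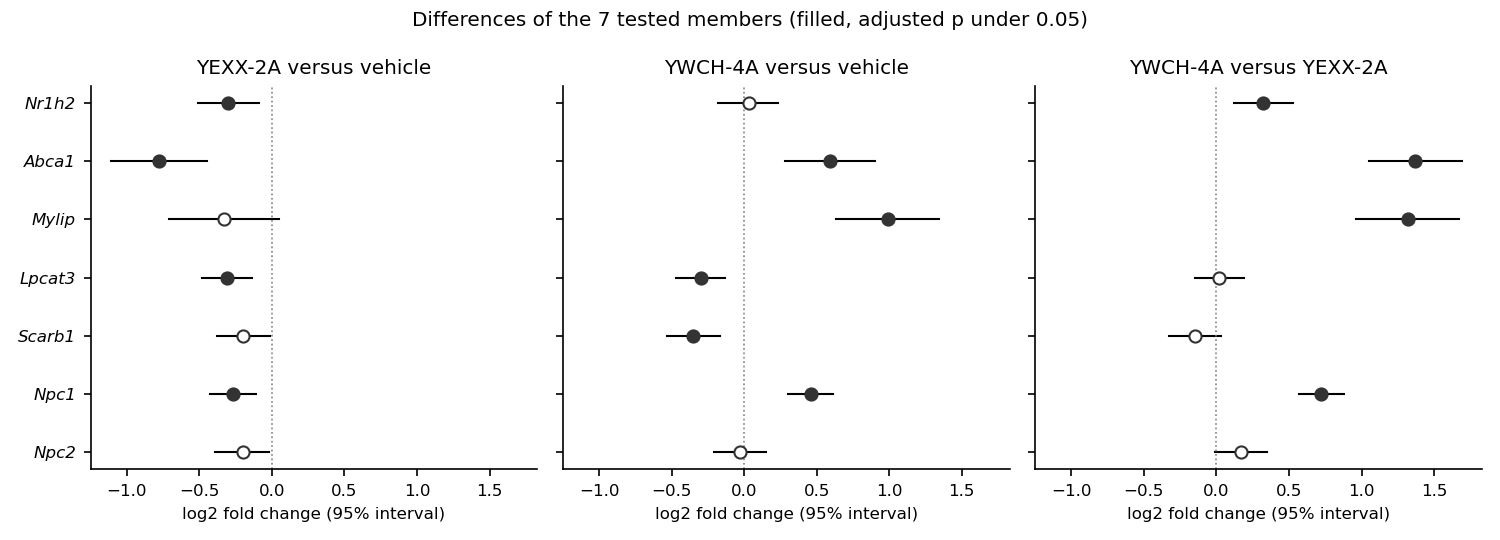
Log2 fold change (horizontal axis) with its 95% interval for the 7 tested members in the 3 comparisons, from edgeR; filled points had an adjusted p under 0.05. Abca1 and Npc1 lie below 0 with YEXX-2A and above 0 with YWCH-4A, and Lpcat3 lies below 0 with both.

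Abca1, the efflux pump, was at 4.82, 5.15 and 5.76 CPM in the vehicle libraries, at 2.73, 3.2 and 3.26 with YEXX-2A and at 7.83, 7.32 and 8.57 with YWCH-4A. The 3 groups did not overlap, with YEXX-2A lowest and YWCH-4A highest. These levels rest on few reads, between 44 and 167 counts per library. Abca1 fell with YEXX-2A by 0.78 on the log2 scale (SE 0.15, edgeR adjusted p = 0.00663) and rose with YWCH-4A by 0.59 (SE 0.139, edgeR adjusted p = 0.00817). Between the compounds it was 2.59-fold higher with YWCH-4A (log2 1.37, SE 0.143, edgeR adjusted p = 4.7e-05). The rise against vehicle was not called with group-weighted limma-voom (0.59, adjusted p = 0.0507). Its partner in efflux, Abcg1, which loads cholesterol onto HDL, had 2 counts in all over the vehicle libraries, 2 with YEXX-2A and 3 with YWCH-4A, and no fold change can be given at this depth.

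Mylip encodes IDOL, a ubiquitin ligase made under LXR control that marks lipoprotein receptors, among them the VLDL receptor and the ApoE receptor 2, for breakdown. It was at 5.93, 4.28 and 4.52 CPM with vehicle, at 4.23, 3.66 and 3.85 with YEXX-2A and at 8.4, 10.6 and 10.3 with YWCH-4A. Every YWCH-4A library lay above every other, while the vehicle and YEXX-2A groups were separated by only the gap from 4.28 to 4.23 CPM. Mylip rose with YWCH-4A by 0.99 (log2, SE 0.162, edgeR adjusted p = 0.00101) and was 2.49-fold higher than with YEXX-2A (log2 1.32, SE 0.162, edgeR adjusted p = 0.00015). Against vehicle, the YEXX-2A value of -0.33 did not pass (95% interval -0.71 to 0.05, edgeR adjusted p = 0.144).

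The mRNAs of 2 receptors that IDOL targets, Vldlr and Lrp8, were lower with YWCH-4A than with vehicle. Vldlr, the VLDL receptor, was at 61.8, 58.6 and 81.3 CPM with vehicle, at 63.5, 68.7 and 62.8 with YEXX-2A and at 19, 21.5 and 21.4 with YWCH-4A. It fell with YWCH-4A by 1.71 (log2, SE 0.122, edgeR adjusted p = 2.3e-06). The YWCH-4A libraries lay far below both other groups, which overlapped. Lrp8, the ApoE receptor 2, had a mean of 78.4 CPM with vehicle and 51.7 with YWCH-4A and fell by 0.60 (SE 0.068, edgeR adjusted p = 6.98e-05). With YEXX-2A the values were -0.05 for Vldlr and -0.01 for Lrp8, neither of them called, and their sign changed under other settings. IDOL acts on receptor protein, which was not measured.

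**Figure D3:**
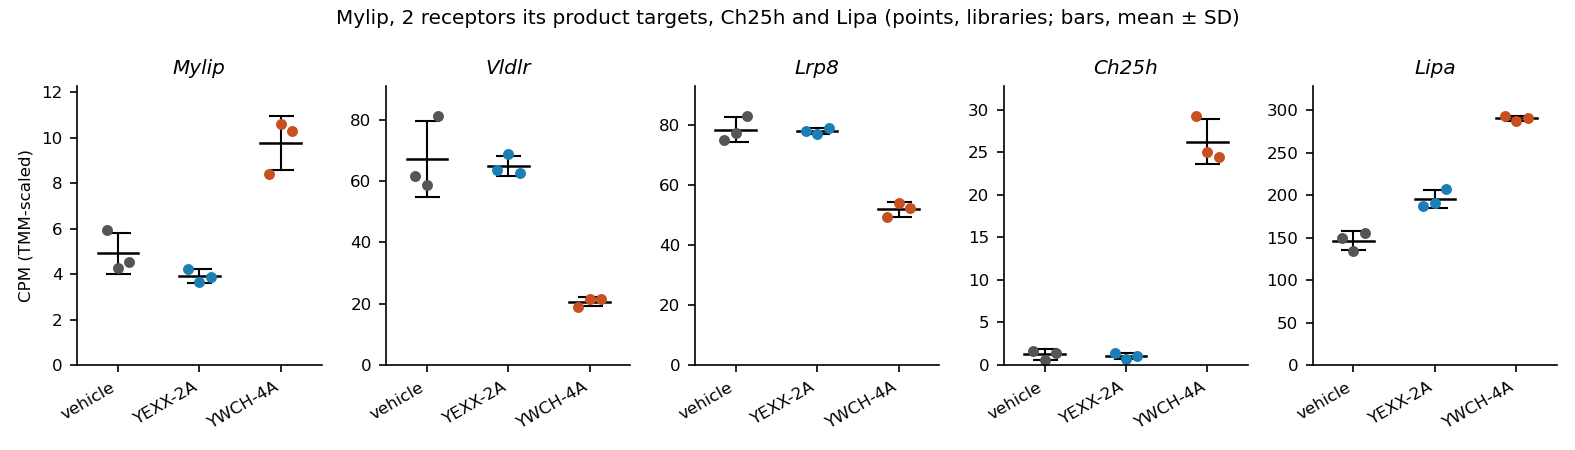
Levels (CPM, linear axes from 0) of Mylip, 2 receptors its product targets, Ch25h and Lipa in the 9 libraries; points are libraries, and bars give the mean and SD of 3. With YWCH-4A, Mylip, Ch25h and Lipa are higher and Vldlr and Lrp8 lower than in every vehicle library.

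Npc1 encodes the membrane protein that receives cholesterol from NPC2 and passes it out of the lysosome. It was at 108, 125 and 113 CPM with vehicle, at 95, 91.4 and 101 with YEXX-2A and at 159, 155 and 161 with YWCH-4A. The 3 groups did not overlap and stood in the same order as for Abca1. Npc1 rose with YWCH-4A by 0.46 (log2, SE 0.071, edgeR adjusted p = 0.000713) and was 1.65-fold higher than with YEXX-2A (log2 0.72, SE 0.071, edgeR adjusted p = 3.08e-05). It fell with YEXX-2A by 0.27 (SE 0.072, edgeR adjusted p = 0.0201). That call was lost when only those 2 groups were fitted (adjusted p = 0.0732), with the library score (-0.13, adjusted p = 0.137), and without YEXX-2A replicate 1 (adjusted p = 0.0671) or 2 (adjusted p = 0.091), all in edgeR. Npc2, its soluble partner, was at 385, 464 and 377 CPM with vehicle, at 369, 332 and 364 with YEXX-2A and at 403, 399 and 397 with YWCH-4A. The vehicle libraries spanned the YWCH-4A ones, and neither difference from vehicle was called: -0.20 with YEXX-2A (95% interval -0.39 to -0.02, edgeR adjusted p = 0.071) and -0.03 with YWCH-4A (-0.21 to 0.15, edgeR adjusted p = 0.79).

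Nr1h2, the expressed receptor, was at 93.1, 116 and 88.3 CPM with vehicle, at 82.3, 78.3 and 81 with YEXX-2A and at 98.9, 101 and 103 with YWCH-4A. The YEXX-2A libraries were the lowest, and the YWCH-4A ones lay inside the vehicle range. Nr1h2 fell with YEXX-2A by 0.30 (log2, SE 0.094, edgeR adjusted p = 0.0336), a call lost in 11 of 21 alternatives, among them leaving out any one YEXX-2A or YWCH-4A library (adjusted p 0.0539 to 0.116). Without vehicle replicate 2 the value was -0.17 (edgeR adjusted p = 0.0182), and with the library score it was -0.05 and not called (edgeR adjusted p = 0.631). The value for YWCH-4A was 0.03 (95% interval -0.18 to 0.23, edgeR adjusted p = 0.854), and without vehicle replicate 2 it was 0.15 and called (edgeR adjusted p = 0.0277). With the library score the YWCH-4A value was 0.13 and also called (edgeR adjusted p = 0.0163). Between the compounds Nr1h2 was higher with YWCH-4A by 0.32 (SE 0.093, edgeR adjusted p = 0.023), a call lost without any one of the 6 compound libraries (adjusted p 0.057 to 0.0932). The other receptor gene, Nr1h3, had 1 count in all with vehicle, 3 with YEXX-2A and 2 with YWCH-4A. Rxra, a dimer partner of LXR, was at 37.9 to 54.7 CPM with vehicle, and the libraries of both compounds (41.5 to 50.3) lay inside that range.

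Lpcat3 was the member that fell with both compounds. It was at 218, 248 and 208 CPM with vehicle, at 186, 171 and 185 with YEXX-2A and at 188, 173 and 188 with YWCH-4A. All vehicle libraries lay above those of either compound, which overlapped each other. The fall was 0.31 in size with YEXX-2A (log2 -0.31, SE 0.077, edgeR adjusted p = 0.0153) and 0.30 with YWCH-4A (log2 -0.30, SE 0.077, edgeR adjusted p = 0.0134). Between the compounds the difference was 0.02 (95% interval -0.15 to 0.19, edgeR adjusted p = 0.891). With YEXX-2A the call was also lost with the library score, at -0.14 (edgeR adjusted p = 0.0555), and when only the 2 groups were fitted (0.0549). Leaving out replicate 2 of the compound ended the call for YEXX-2A (edgeR adjusted p = 0.0737) and for YWCH-4A (0.0728), and limma on log2(FPKM + 1) did so for YWCH-4A (-0.12, adjusted p = 0.136).

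Scarb1 encodes the receptor SR-B1, through which cholesterol passes between cells and HDL in both directions. It was at 72.7, 88.5 and 72.7 CPM with vehicle, at 66.7, 68.6 and 68.7 with YEXX-2A and at 61.6, 60.5 and 61.6 with YWCH-4A. The groups did not overlap, with vehicle highest. Scarb1 fell with YWCH-4A by 0.35 (log2, SE 0.082, edgeR adjusted p = 0.00844), whereas limma on log2(FPKM + 1) gave -0.16 (adjusted p = 0.0593). The value with YEXX-2A was -0.20 (95% interval -0.38 to -0.01, edgeR adjusted p = 0.0799), and between the compounds it was -0.15 (-0.33 to 0.03, edgeR adjusted p = 0.184). Without vehicle replicate 2 the Scarb1 difference with YEXX-2A was -0.10 (edgeR adjusted p = 0.167), and that of Npc2 was -0.10 (edgeR adjusted p = 0.1). In the same fit both genes were called between the compounds, Scarb1 lower with YWCH-4A (-0.15, edgeR adjusted p = 0.0133) and Npc2 higher (0.17, edgeR adjusted p = 0.00272). That fit called 51.6% of all tested genes between the compounds, against 31.3% in the main one.

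Apoe, the apolipoprotein that accepts effluxed cholesterol and a known LXR target, had 3, 3 and 2 counts in the vehicle libraries, 22, 11 and 3 with YEXX-2A and 2, 4 and 0 with YWCH-4A. Replicates 1 and 2 of YEXX-2A were high, and replicate 3, at 0.222 CPM, lay within the vehicle range of 0.146 to 0.238 CPM. The summed counts, 36 against 8, gave a ratio of 3.4 for YEXX-2A to vehicle (95% interval 1.55 to 8.47, which covers counting error only). Without the filter on low counts, edgeR over 15001 genes gave an adjusted p of 0.0936 for YEXX-2A against vehicle, 0.568 for YWCH-4A against vehicle and 0.0237 for YWCH-4A against YEXX-2A. In the same libraries, 11 macrophage and leukocyte markers (Cd163 at 0 throughout) summed to 24, 22 and 2 counts with YEXX-2A, to 5, 1 and 1 with vehicle and to 4, 6 and 2 with YWCH-4A. Their part in the Apoe counts was not tested. The twelfth marker of that list, Cd74, was apart from these, at 89.3 to 118 CPM with vehicle, 102 to 107 with YEXX-2A and 386 to 402 with YWCH-4A.

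**Figure D4:**
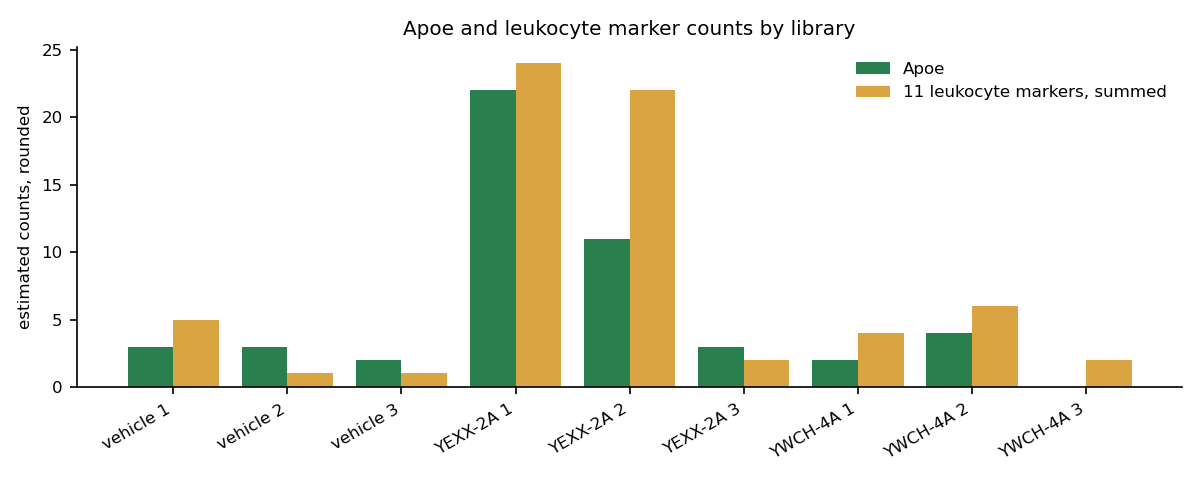
Rounded estimated counts (linear axis from 0) of Apoe and of 11 leukocyte markers summed, as bars for each of the 9 libraries. Both are highest in YEXX-2A replicates 1 and 2, at 22 and 11 counts of Apoe and 24 and 22 of the markers.

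The other genes of sterol handling were read from 7 lists. Counts called in a list stand beside the shares called over all tested genes. These were 36.1% with YEXX-2A, 30.6% with YWCH-4A and 31.3% between the compounds. Without vehicle replicate 2 they were 35.1%, 39.4% and 51.6% in that order. With the library score they were 13.7% with YEXX-2A and 48.5% with YWCH-4A. In the SREBP2 list (processing proteins, lipoprotein receptors and sterol synthesis enzymes, all 26 tested), 19 genes fell and 1 rose with YWCH-4A, with a median log2 fold change of -0.36 beside 0.03 over all genes. With YEXX-2A, 9 rose and 1 fell, with a median of 0.06 beside 0.01. Between the compounds 17 were lower and none higher with YWCH-4A. Without vehicle replicate 2, 19 fell and none rose with YWCH-4A, and 11 rose and 1 fell with YEXX-2A. The YEXX-2A median was then 0.17, beside 0.01 over all genes. With the library score, 20 fell and 1 rose with YWCH-4A, and 13 rose and none fell with YEXX-2A (median 0.18 beside -0.02). Besides Vldlr, Fdps, a synthase of the mevalonate pathway, fell with YWCH-4A (-0.68, edgeR adjusted p = 4.25e-05). Insig2, which retains SREBPs in the endoplasmic reticulum, rose (0.44, edgeR adjusted p = 0.0465), a call lost in 12 of 21 alternatives. Cyp51, the lanosterol demethylase, rose with YEXX-2A (0.95, edgeR adjusted p = 0.00066), as did Insig1 (0.74, edgeR adjusted p = 0.00336). Lrp1, an endocytic receptor, fell (-0.27, edgeR adjusted p = 0.0474), a call lost in 12 of 21, and its value was -0.16 without vehicle replicate 2 and -0.04 with the library score (edgeR adjusted p = 0.654).

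Oxysterols are the ligands of LXR, and 6 of 8 genes of their synthesis and removal were tested. Ch25h, which makes 25-hydroxycholesterol, was at 1.69, 0.554 and 1.46 CPM with vehicle, at 1.36, 0.661 and 1.04 with YEXX-2A and at 29.3, 25 and 24.5 with YWCH-4A. The YWCH-4A libraries lay far above the other 6, which overlapped. Ch25h rose with YWCH-4A by 4.37 (log2, SE 0.269, edgeR adjusted p = 7.14e-07), and no other gene of the list was called there. With the library score, 2 genes of the list were called higher with YWCH-4A, where 48.5% of all tested genes were called. With YEXX-2A 1 gene rose and 2 fell (median -0.28), where 36.1% of all tested genes were called. Hsd3b7 (-0.59, edgeR adjusted p = 0.00351) and Cyp27a1 (-0.57, edgeR adjusted p = 0.0116), which turn sterols towards bile acids, fell, and Cyp27a1 was not called with the library score (-0.35, edgeR adjusted p = 0.113). Sterols were not measured.

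Of 19 other LXR target genes, 8 were tested, beside called shares over all genes of 30.6% with YWCH-4A and 36.1% with YEXX-2A. With YWCH-4A 1 rose and 4 fell, with a median of -0.31. Without vehicle replicate 2, 9 were tested, 2 rose and 4 fell, and the median was -0.02, and with the library score it was -0.18. The stearoyl-CoA desaturases Scd (-0.89, edgeR adjusted p = 3.41e-06) and Scd2 (-0.87, edgeR adjusted p = 2.5e-06) fell, and the cholesterol ester hydrolase Nceh1 rose (0.43, edgeR adjusted p = 0.0191). With YEXX-2A 3 rose and 3 fell, with a median of 0. The fatty acid enzymes Acaca (0.33, edgeR adjusted p = 0.00888) and Fasn (0.37, edgeR adjusted p = 0.0269) rose, while Srebf1, the lipogenic regulator (-0.43, edgeR adjusted p = 0.0165), and Scd2 (-0.21, edgeR adjusted p = 0.0285) fell. The Fasn and Scd2 calls with YEXX-2A were each lost in 8 of 21 alternatives, and with the library score 2 genes of the list were called higher and none lower, with Srebf1 at -0.13 (edgeR adjusted p = 0.146) and Scd2 at -0.11 (0.0744). Without vehicle replicate 2 the Srebf1 value was -0.27 and the Nceh1 value with YWCH-4A 0.28, both called. The list therefore did not move one way with either compound.

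In the list of lysosomal and intracellular sterol transport, 21 of 22 genes were tested. The shares called over all tested genes were 30.6% with YWCH-4A and 36.1% with YEXX-2A. With YWCH-4A 6 rose and 1 fell (median 0.24), and the median was 0.13 without vehicle replicate 2 and 0.12 with the library score. With YEXX-2A 6 rose and 2 fell (median 0.11), or 3 and 2 with the score (median 0.04). Lipa, the lysosomal acid lipase that frees cholesterol from esters upstream of NPC2, was at 150, 134 and 155 CPM with vehicle, at 187, 191 and 207 with YEXX-2A and at 293, 287 and 291 with YWCH-4A. The groups did not overlap. Lipa rose with YEXX-2A (0.42, edgeR adjusted p = 0.00373) and with YWCH-4A (0.99, edgeR adjusted p = 1.96e-06). Scp2, a sterol carrier, rose with YWCH-4A (0.34, edgeR adjusted p = 0.00466), and Scarb2, a lysosomal membrane protein, fell (-0.38, edgeR adjusted p = 0.000753). With YEXX-2A, Cav2, a caveolin, rose (0.72, edgeR adjusted p = 0.00663), and the sterol transfer genes Gramd1b (-0.75, edgeR adjusted p = 0.00456) and Gramd1a (-0.42, edgeR adjusted p = 0.0103) fell, the latter not called with the score (-0.22, edgeR adjusted p = 0.0518).

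Cholesterol that is not exported can be esterified and stored in droplets. Of 12 genes for this, 6 were tested, beside called shares over all genes of 36.1% with YEXX-2A and 30.6% with YWCH-4A. With YEXX-2A 3 fell and none rose (median -0.31), among them the droplet coat genes Plin2 (-0.53, edgeR adjusted p = 0.00212) and Plin3 (-0.32, edgeR adjusted p = 0.0172). With the library score 1 fell and none rose (median -0.12), and Plin3 was not called (-0.16, edgeR adjusted p = 0.137). With YWCH-4A 2 rose and 1 fell (median 0.15). Soat1, which esterifies cholesterol (0.27, edgeR adjusted p = 0.00467), and Plin2 (0.35, edgeR adjusted p = 0.00502) rose, and Plin4 fell (-1.06, edgeR adjusted p = 0.00598). Plin4 rests on few reads, 42, 36 and 29 counts with vehicle and 20, 27 and 22 with YWCH-4A. Plin2 was thus called in opposite directions with the 2 compounds, as Abca1 and Npc1 were. Of 17 genes of HDL particles and other transporters, 7 were tested, beside the same called shares over all genes. With YWCH-4A 2 rose and 1 fell (median 0.06). Without vehicle replicate 2, 2 rose and 2 fell with YWCH-4A (median 0.14), where 39.4% of all tested genes were called. Abca2 (0.51, edgeR adjusted p = 0.00124) and Abcb4 (0.66, edgeR adjusted p = 0.00167), further lipid transporters, rose with YWCH-4A, and Lipg, endothelial lipase, fell (-1.42, edgeR adjusted p = 0.00764). Lipg was near the floor, at 14, 17 and 16 counts with vehicle and 12, 8 and 4 with YWCH-4A, and was tested in only 20 alternatives. With YEXX-2A, Bmp1, a protease that matures apolipoprotein A-I and procollagens, was the one gene called (-0.42, edgeR adjusted p = 0.0178), and its value without vehicle replicate 2 was -0.27. With the library score Bmp1 was not called (-0.12, edgeR adjusted p = 0.146), and 2 genes of the list were higher and 1 lower. That fit called 13.7% of all tested genes with YEXX-2A.

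Of 17 receptor partners, coactivators and corepressors of LXR, 16 were tested. The shares called over all tested genes were 30.6% with YWCH-4A and 36.1% with YEXX-2A. With YWCH-4A none rose and 1 fell (median 0.02). With YEXX-2A, 2 rose and 2 fell (median 0.15): Tbl1xr1 (0.72, edgeR adjusted p = 0.0196) and Ncor1 (0.51, edgeR adjusted p = 0.0322), both of corepressor complexes, rose, and Rxrb (-0.37, edgeR adjusted p = 0.0304), a dimer partner, was among those that fell. Without vehicle replicate 2 the counts were 4 and 2 with YEXX-2A, and 1 and 3 with YWCH-4A. The Ncor1 call was lost in 6 of 21 alternatives, the Tbl1xr1 call in 4 and the Rxrb call in 9, and without that library the Ncor1 value was 0.32, the Tbl1xr1 value 0.48 and the Rxrb value -0.24. With the library score none of these 3 was called with YEXX-2A (Ncor1 0.06, Tbl1xr1 0.19 and Rxrb -0.10), and in the list 1 gene was higher and 1 lower, with a median of -0.04.

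**Figure D5:**
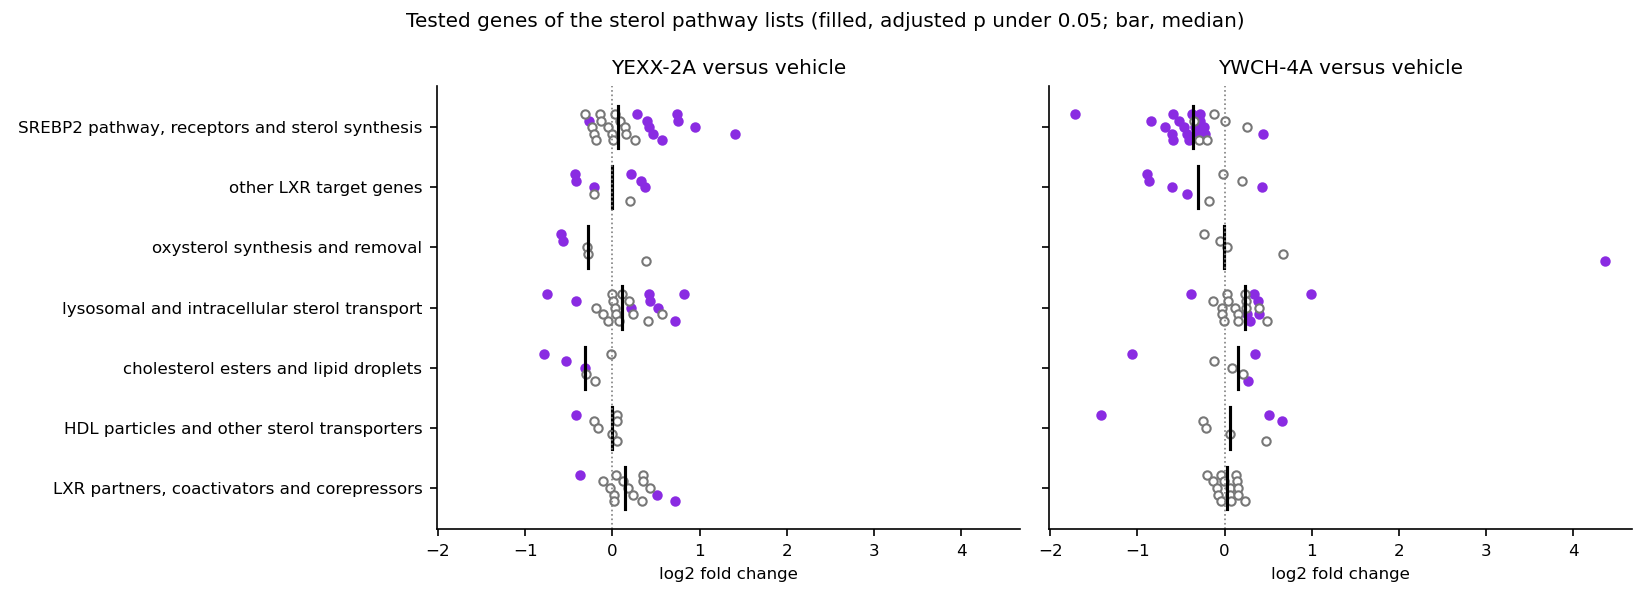
Log2 fold change of the tested genes (points, 4 genes of the lists not drawn) against vehicle in 7 sterol pathway lists, with filled points at an adjusted p under 0.05 in edgeR and a bar at the median of the whole list. In the SREBP2 list 19 of 26 genes are called lower with YWCH-4A, and the point farthest above 0 there is Ch25h in the oxysterol list.

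The genes whose pattern was most like that of Abca1, Mylip and Npc1 were found by the mean absolute difference of centred log2(CPM + 1) values over the 9 libraries, among the 9431 tested genes that averaged 5 CPM or more. For Abca1 these were Bid (0.0798), Prr5l (0.0857) and Bmp6 (0.0881), where the median over candidates was 0.444. For Mylip they were a gene annotated as microtubule associated serine/threonine kinase family member 4 (0.0923), Il6r (0.108) and C1s (0.109), with a median of 0.469. For Npc1 they were Lrrn4 (0.0236), Arhgef17 (0.0271) and Cd276 (0.03), with a median of 0.311. All libraries are shared between the genes compared, and the distances are a description.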

How the data were processed

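Poly(A)-selected RNA was sequenced from 9 NRK-49F libraries, 3 per group, per the labels' protocols. The submitters' processing notes list edgeR, DESeq2, RSEM and StringTie 1.3.1 without saying what each did. The aligner, genome build and annotation are not given in the sources used here. The table deposited by the authors gave, for every library and gene, an FPKM value and an estimated count, as its headers name them; of the estimated counts above 0, 8.87% were not whole. No step here separated reads of overlapping antisense genes.

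Estimated counts were rounded, and a gene was kept by filterByExpr with a minimum count of 10. Library totals of 13675868 to 21923715 set the counting error of low genes. Groups were compared with the robust quasi-likelihood F-test of edgeR 4.0.16 (R 4.3.3) on all 9 libraries, with TMM factors and group as the one term. P-values are two-sided and adjusted by Benjamini-Hochberg over the 11473 genes tested. A gene was called, and written as risen or fallen, at an adjusted p under 0.05. CPM values use TMM-scaled library sizes, while the FPKM values were not rescaled. SE is the log2 fold change divided by the square root of F. The groups share 1 estimate of spread although they differed in it. Ratios of low genes have exact 95% intervals, and the fitting script was tested on simulated counts.

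Alternatives were DESeq2 1.42.0, limma 3.58.1 on voom values and on log2(FPKM + 1) or log2(FPKM + 0.1), other scalings and filters, the 2 groups alone, a replicate block, a library score (projection on the main axis of within-group differences) and each library left out. The members, the lists and the tests were chosen with earlier results of these data known. All members are named; of each list, the 2 genes called higher and the 2 called lower with the smallest p per comparison with vehicle are named, except that some genes of the lists, although counted, are not reported here. Lrp8, Rxra and other genes with a role beside the members could be named too. Checks of named list genes under alternatives, of the lists without vehicle replicate 2 or with the score, of the members' median and of leukocyte markers without Cd74 were added after seeing the data.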

Additional observations from a re-analysis of the deposited data

How the results depend on the processing

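Abca1 and Npc1 with YWCH-4A kept their sign in all 21 alternatives, as did Mylip, and the calls of Mylip and Npc1 held in all of them. The members called with YEXX-2A against vehicle numbered 4, but 1 when only the 2 groups were fitted, 2 with a replicate block, 1 with the library score, and 1 to 6 with 1 library left out. All genes called there fell from 4145 to 1408, 1931 and 1574 in the first 3 of these, and ranged from 1044 to 5308 with 1 library left out. Correlations of same-numbered deviations from the group mean were 0.0555, -0.427 and -0.259 for vehicle and YEXX-2A. They were -0.00246, -0.204 and -0.187 for vehicle and YWCH-4A, and -0.0373, 0.165 and 0.163 for the 2 compounds. Deviations from a mean of 3 libraries cannot decide whether replicate numbers pair the libraries. For YWCH-4A against vehicle, the library score gave 5564 genes in place of 3516. Between the compounds, 3593 genes became 5994 with group-weighted voom, 5903 with the 2 groups alone, and 2225 to 6001 with 1 library left out. Uncalled values that changed sign were Npc2 with YWCH-4A (0.15 on both FPKM scales, 0.06 with the score), Lpcat3 between the compounds (-0.08 with the score) and, with YEXX-2A, Vldlr (0.05 on FPKM scales) and Lrp8 (0.07 on FPKM scales, 0 with upper-quartile factors). With 1 library left out, ranges that crossed 0 were -0.05 to 0.15 for Nr1h2 and -0.09 to 0.07 for Npc2 with YWCH-4A, -0.02 to 0.06 for Lpcat3 between the compounds, and, with YEXX-2A, -0.61 to 0.01 for Ch25h, -0.13 to 0.11 for Vldlr and -0.04 to 0.03 for Lrp8. The cause was not tested. Named list calls not mentioned as lost above were lost in at most 4 of 21 alternatives. Depth limits Abcg1, Nr1h3 and Apoe, which have too few counts for the main test.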
